A study of Homo sapiens with 4 samples.

Results

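The TGF-beta core examined here consists of 10 genes, namely the ligand genes TGFB1, TGFB2, TGFB3 and INHBA, the receptor genes TGFBR1 and TGFBR2, and the signal transducer genes SMAD2, SMAD3, SMAD4 and SMAD7. They were taken by symbol, and all 10 were found among the 23228 gene symbols of the count files. RNA was sequenced from ES2, an established human ovarian cancer cell line, after 12 h with 10 nM of EC359, a small molecule inhibitor of the leukemia inhibitory factor receptor LIFR, or with a vehicle of 0.1% DMSO. Each treatment had 2 libraries of the same line, both kept in RPMI medium with 10% FBS, so the results describe 1 cell line at 1 dose and 1 time. The study asked which genes EC359 changes in ovarian cancer cells. TGFB1 stands in the study's own list of genes that induce ferroptosis, a list drawn from these same libraries, so its direction there is not independent evidence.

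TGF-beta ligands are secreted in a latent form, are released by proteases, integrins or thrombospondin, and then bind the type II receptor TGFBR2, which recruits and activates the type I receptor TGFBR1. The active receptor phosphorylates SMAD2 and SMAD3, which enter the nucleus with SMAD4 and switch target genes on or off, while SMAD7 is made in response and shuts the receptor down. INHBA encodes the subunit of activin A, a related ligand that uses its own receptors and the same SMAD2 and SMAD3. In ovarian carcinoma this pathway is known for its links to invasion, matrix production and a mesenchymal state.

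Reads counted on genes ranged from 25572494 to 31707553 per library, and both EC359 libraries were deeper than both vehicle libraries. Counts were scaled with TMM factors, and a normalized count is the count expected at the mean library size. Of 12706 genes with enough counts, edgeR's quasi-likelihood test called 139 at an adjusted p below 0.01, of which 38 were higher and 101 lower in EC359, or 52 higher and 68 lower when libraries were scaled by total counts only. VIM and KRT18 were abundant, EPCAM, CDH1 and MUC16 had at most 2 counts in any library, and the leukocyte and endothelial markers PTPRC, CD3E and PECAM1 together had 0 to 2 counts per library. VIM, the mesenchymal intermediate filament gene, was lower in EC359 (log2 fold change -0.17, adjusted p = 0.0135), and its part in any result here was not tested. The other mesenchymal markers, ZEB1 and CDH2, had opposite signs, with log2 fold changes of -0.133 and 0.035 (adjusted p = 0.0817 and 0.627). LIF, LIFR and SOCS3 were not called, with log2 fold changes of -0.090, 0.062 and -0.049. In bulk RNA, fewer cells that express a gene and less RNA per cell cannot be told apart.

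None of the 10 genes was called, that is, 0 were higher and 0 were lower in EC359 at an adjusted p under 0.01, where 1.09% of all tested genes were called, 0.299% higher and 0.795% lower. At an adjusted p under 0.05 the count was also 0, against 4.32% of all tested genes. At an unadjusted p under 0.05 there were 2, TGFB1 and TGFB2, both higher. Of all 12706 tested genes, 1356 were higher and 1394 lower at this mark, or 21.6% in either direction. DESeq2 and limma voom called 0 of the 10 and edgeR's exact test called 1, TGFB2. The median log2 fold change of the 10 genes was 0.058, beside 0.0029 for all genes tested. In 4 genes, TGFB1, TGFB2, SMAD7 and INHBA, both EC359 libraries lay above both vehicle libraries, which occurred in 26.1% of all tested genes. In 0 of the 10 did both lie below, against 25.4% of all tested genes.

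**Figure D1:**
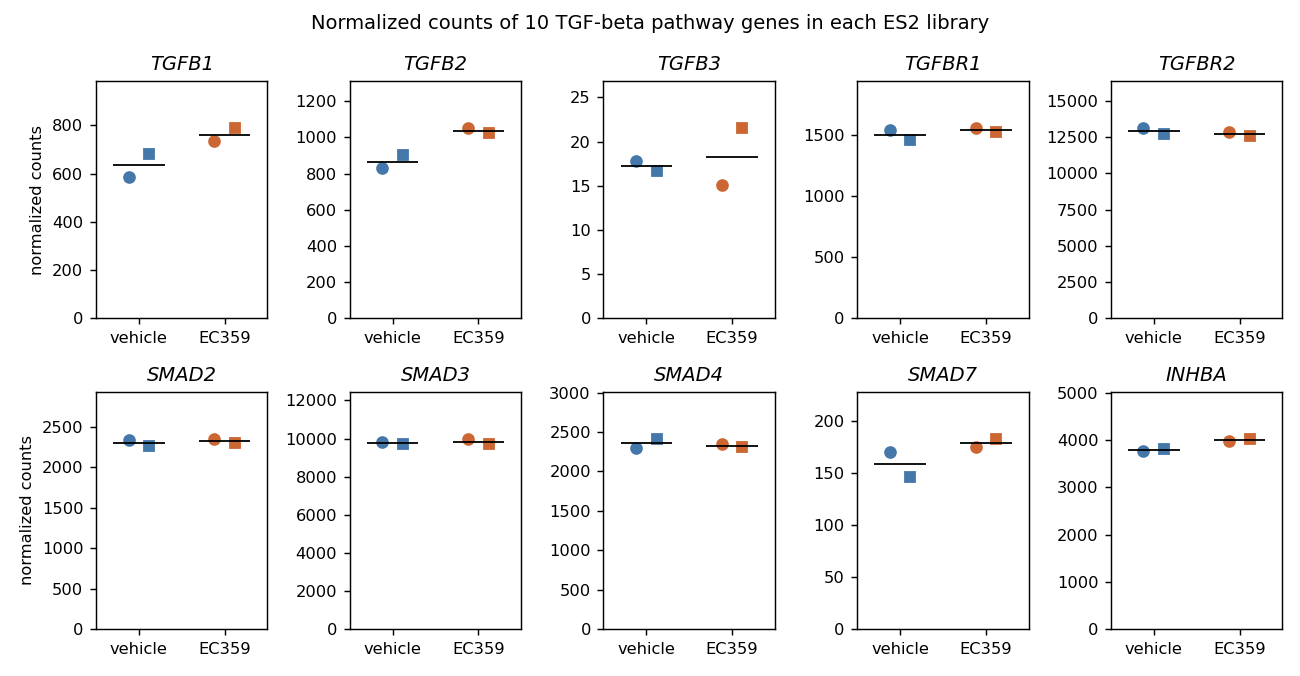
Normalized counts (y axis, from 0, a separate scale for each gene) of the 10 genes in the vehicle (blue) and EC359 (orange) libraries. Circles are replicate 1, squares replicate 2 and bars the mean of 2 libraries. TGFB1 and TGFB2 show the clearest offset between treatments, and the receptor and SMAD2, SMAD3 and SMAD4 panels are flat.

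Among the ligands, TGFB1 and TGFB2 had the largest fold changes of the 10 genes, and they were almost equal. TGFB1, the most widely expressed of the 3 TGF-beta isoforms, lies on chromosome 19 of GRCh37 from 41807492 to 41859827. It had 587 and 682 normalized counts in the vehicle libraries and 734 and 787 in the EC359 libraries. The groups did not overlap, but the gap between them was smaller than the distance between the vehicle libraries. In the fit the difference in TGFB1 was 0.26 on the log2 scale with a standard error of 0.084 (95% interval 0.075 to 0.45), or 19.8% higher, and the adjusted p was 0.103 from edgeR's quasi-likelihood test. The estimate depended on the library left out. It was 0.16 without vehicle replicate 1, 0.37 without vehicle replicate 2, 0.31 without EC359 replicate 1 and 0.21 without EC359 replicate 2.

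TGFB2, an isoform associated with mesenchymal cells, lies on chromosome 1 of GRCh37 from 218518678 to 218617961. It had 830 and 901 normalized counts with vehicle and 1049 and 1023 with EC359. Here the gap between the groups exceeded the distance between replicates of either treatment. Its log2 fold change was 0.26 with a standard error of 0.065 (95% interval 0.115 to 0.40), or 19.7% higher, with an adjusted p of 0.0526. The adjusted p of TGFB2 fell to 0.00906 with edgeR's exact test, which called 568 of all 12706 tested genes. With GC and length trends of each library removed it was 0.00667, in a quasi-likelihood refit that called 1104 of 10945 genes. It reached 0.111 with DESeq2. Without vehicle replicate 2 the log2 fold change was 0.31. TGFB2 was the nearest of the 10 genes to a call, ranking at place 588 of 12706 by p, with TGFB1 at place 1292.

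TGFB3, the third isoform, lies on chromosome 14 of GRCh37 from 76424440 to 76449354. It was barely expressed, and since the strand setting of the counting is not given, reads of the antisense gene TGFB3-AS1 cannot be told apart from its own. Its raw counts were 16 and 15 with vehicle and 17 and 23 with EC359, and the groups overlapped. The log2 fold change was 0.076 with a 95% interval of -0.70 to 0.85 (adjusted p = 0.931), so a change of moderate size in either direction was not detectable at this depth. Of the summed level per length of the 3 isoforms, TGFB1 made up 56.1% and 57.9% in the vehicle libraries and 56.1% and 58.2% in the EC359 libraries. TGFB2 made up 42.8% and 41.3% with vehicle and 43.2% and 40.8% with EC359, and TGFB3 made up at most 1.06% in any library. The make-up of the ligand RNA was therefore nearly the same in all 4 libraries while both main isoforms had a higher mean in EC359. The shares depend on the length used, and per kb of the longest transcript TGFB1 was at 228 and TGFB2 at 148 in vehicle. Ligand protein was not measured in these libraries.

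INHBA lies on chromosome 7 of GRCh37 from 41706766 to 41745432. It had 3771 and 3807 normalized counts with vehicle and 3978 and 4025 with EC359. The groups did not overlap and the replicates lay close together. The change of INHBA was nevertheless small, at 0.079 (log2) with a standard error of 0.037 (95% interval -0.0029 to 0.16), and the adjusted p was 0.247.

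**Figure D2:**
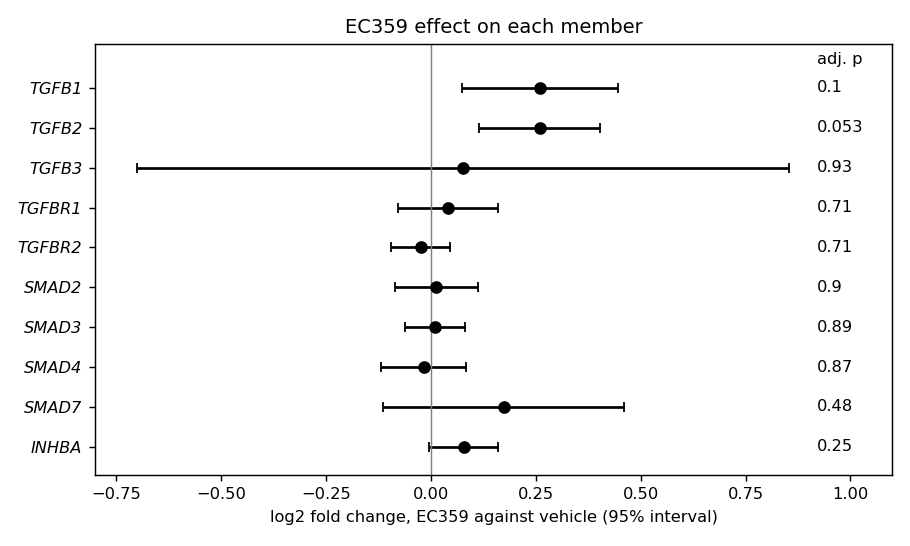
Log2 fold change of EC359 against vehicle (x axis) with its 95% interval for each of the 10 genes (y axis) from edgeR's quasi-likelihood fit to 4 libraries, with the adjusted p at the right. The intervals of TGFB1 and TGFB2 lie above 0 before adjustment, that of TGFB3 is the widest, and those of the receptors and of SMAD2, SMAD3 and SMAD4 are narrow and span 0.

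The receptor transcripts overlapped between treatments and were not called. TGFBR2, the ligand-binding type II receptor, lies on chromosome 3 of GRCh37 from 30648093 to 30735634. It had 13097 and 12743 normalized counts with vehicle and 12856 and 12557 with EC359, and the groups overlapped. The log2 fold change of TGFBR2 was -0.024 (95% interval -0.095 to 0.047, adjusted p = 0.712), which bounds the change between -6.37% and 3.30%. TGFBR1, the kinase that phosphorylates the SMADs, lies on chromosome 9 of GRCh37 from 101866320 to 101916474. It had 1542 and 1459 normalized counts with vehicle and 1556 and 1530 with EC359, again with overlap. Its log2 fold change was 0.040 (95% interval -0.078 to 0.16, adjusted p = 0.711), which bounds the change between -5.29% and 11.7%.

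The SMAD genes for the transducing proteins were equally flat. SMAD3, on chromosome 15 of GRCh37 from 67356101 to 67487511, had 9812 and 9707 normalized counts with vehicle and 9967 and 9693 with EC359. SMAD2, on chromosome 18 from 45335328 to 45457517, had 2337 and 2264 with vehicle and 2348 and 2297 with EC359. SMAD4, the shared partner, on chromosome 18 from 48554898 to 48611415, had 2302 and 2408 with vehicle and 2342 and 2312 with EC359. In all 3 genes the EC359 values fell inside or across the range of the vehicle values. The log2 fold changes were 0.010 for SMAD3 (95% interval -0.061 to 0.082), 0.014 for SMAD2 (-0.086 to 0.113) and -0.017 for SMAD4 (-0.118 to 0.084), with adjusted p values of 0.892, 0.901 and 0.871. The sign of these values depended on the processing: SMAD4 turned positive (0.0068) with total counts only and SMAD2 turned negative (-0.025) with GC and length trends removed.

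SMAD7, the inhibitory SMAD that TGF-beta signaling itself induces, lies on chromosome 18 of GRCh37 from 46446223 to 46477335. It had 170 and 146 normalized counts with vehicle and 174 and 182 with EC359. The treatments did not overlap, but the lower EC359 library exceeded the higher vehicle library by only a few counts. The log2 fold change was 0.17 with a standard error of 0.130 (95% interval -0.114 to 0.46, adjusted p = 0.480), an interval from -7.62% to 37.7%. The estimate was 0.29 without vehicle replicate 1 and 0.061 without vehicle replicate 2.

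Levels of different genes were compared as normalized counts per kb of summed exon length. On this scale TGFBR2 stood highest in vehicle at 1886 ± 36.6 per kb (SD, n = 2). SMAD3 followed at 975 ± 7.37, above 88.6% of the 10945 tested genes with a known length, and INHBA at 457 ± 3.03 per kb. TGFB1 at 194 ± 20.6, TGFBR1 at 188 ± 7.33, TGFB2 at 143 ± 8.31 and SMAD4 at 120 ± 3.83 per kb lay near the median gene, which had 172 per kb. SMAD2 at 63.2 ± 1.42, SMAD7 at 40.0 ± 4.35 and TGFB3 at 3.30 ± 0.148 per kb stood lowest. In this order only the neighbours TGFB1 and TGFBR1 overlapped in vehicle, and in EC359 they were apart, with TGFB1 at 233 ± 11.5 and TGFBR1 at 193 ± 2.32 per kb. The level of TGFBR2 per kb was 9.91 and 10.2 times that of TGFBR1 in the vehicle libraries and 9.64 and 9.58 times in the EC359 libraries. Lengths are uncertain for SMAD2 and SMAD4, whose annotated exons sum to 36426 and 19606 bases. With the longest transcript SMAD4 moved to 263 per kb, above TGFBR1 at 231 and TGFB1 at 228, and SMAD3 moved to 1510. Per kb of the reference transcript TGFBR2 was at 2852 and TGFBR1 at 231 in vehicle, so the ratio of these receptors also depends on the length used.

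**Figure D3:**
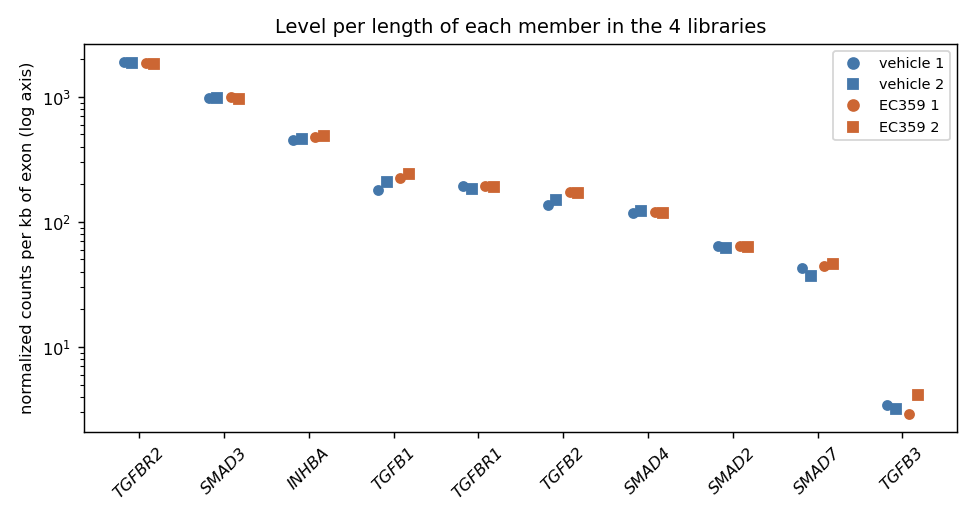
Normalized counts per kb of summed exon length (y axis, log scale) of the 10 genes in each library, ordered by the vehicle mean (blue, vehicle; orange, EC359; circles, replicate 1; squares, replicate 2). TGFBR2 is highest, followed by SMAD3 and INHBA, and TGFB3 is far below the other members.

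The wider pathway was described with lists by role, which held 130 genes in the files and 90 tested genes beside the 10 above. Over these 90, 1 gene was called higher and 1 lower at an adjusted p under 0.01, where 1.09% of all tested genes were called, and the median log2 fold change was 0.049 beside 0.0029 for all genes tested. At an adjusted p under 0.05 there were 5 higher and 3 lower, or 8 of 90 genes, against 4.32% of all tested genes. DESeq2 called 3, limma voom 2 and edgeR's exact test 8 of the 90 at 0.01, beside 230, 146 and 568 of all 12706 tested genes.

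The gene called higher was THBS1, which encodes thrombospondin 1, a matrix protein able to activate latent TGF-beta. The gene lies on chromosome 15 (GRCh37, 39873280 to 39891667). THBS1 had 1318 and 1292 normalized counts with vehicle and 1739 and 1748 with EC359. Both replicates of each treatment nearly coincided, far from those of the other treatment. THBS1 rose by 0.42 on the log2 scale, with a standard error of 0.051 (95% interval 0.30 to 0.53, adjusted p = 0.00275), or 33.6% higher. Its adjusted p was 0.275 without EC359 replicate 1 and 0.242 without EC359 replicate 2, fits in which 0 and 2 genes of the whole table were called, and its fold change there was 0.42 and 0.41.

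THBS1 belongs to the group of latency and release, which had 12 tested genes of 14 and a median log2 fold change of 0.156. In this group 1 gene rose at an adjusted p under 0.01, and 3 were higher and 1 lower under 0.05, or 4 of 12 genes, against 1.09% and 4.32% of all tested genes. The other genes under 0.05, named after their values were seen, were integrin subunits, which bind latent TGF-beta as pairs of an alpha and a beta chain. ITGAV, the alpha-v chain, had 3410 and 3211 normalized counts with vehicle and 3888 and 3755 with EC359 (log2 fold change 0.21, adjusted p = 0.0262). ITGB5, the beta-5 chain, had 4876 and 4993 with vehicle and 5552 and 5696 with EC359 (log2 fold change 0.19, adjusted p = 0.0179). ITGB8, the beta-8 chain, went the other way with 887 and 901 with vehicle and 704 and 693 with EC359 (log2 fold change -0.36, adjusted p = 0.0137). The groups did not overlap in any of these 3 genes. Of all tested genes, 26.1% were higher and 25.4% lower without overlap. ITGB6 had at most 5 counts and LRRC32, the latent TGF-beta anchor of T cells and platelets, had 0 in all libraries, and neither was tested.

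The gene called lower was CTDSP2, a small phosphatase that acts on SMAD proteins among other substrates. The gene lies on chromosome 12 (GRCh37, 58213710 to 58240512). CTDSP2 had 4323 and 4353 normalized counts with vehicle and 3657 and 3701 with EC359. The distance between the groups was many times that between replicates. The log2 fold change of CTDSP2 was -0.24 with a standard error of 0.036 (95% interval -0.32 to -0.157, adjusted p = 0.00705). The call was lost with total counts only (adjusted p = 0.0109), without a filter on low counts (0.0142) and without EC359 replicate 1 (0.348) or EC359 replicate 2 (0.295).

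CTDSP2 was the 1 called gene among 23 tested intracellular regulators, where 1.09% of all tested genes were called. The median log2 fold change of these regulators was -0.00033. The ubiquitin ligase gene NEDD4L, named after its values were seen, was higher with 4345 and 4608 normalized counts with vehicle and 5148 and 5060 with EC359 (log2 fold change 0.19, adjusted p = 0.0259), and did not pass 0.01. Of the SMAD genes outside the core, SMAD1 and SMAD5, which transduce BMP signals, had log2 fold changes of -0.055 and 0.033. SMAD6, the inhibitory SMAD of the BMP branch, had 24.5 and 31.2 normalized counts with vehicle and 40.7 and 39.2 with EC359. Its log2 fold change of 0.52 had a 95% interval of -0.048 to 1.09 and an adjusted p of 0.270, so the difference was not resolved at this count.

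**Figure D4:**
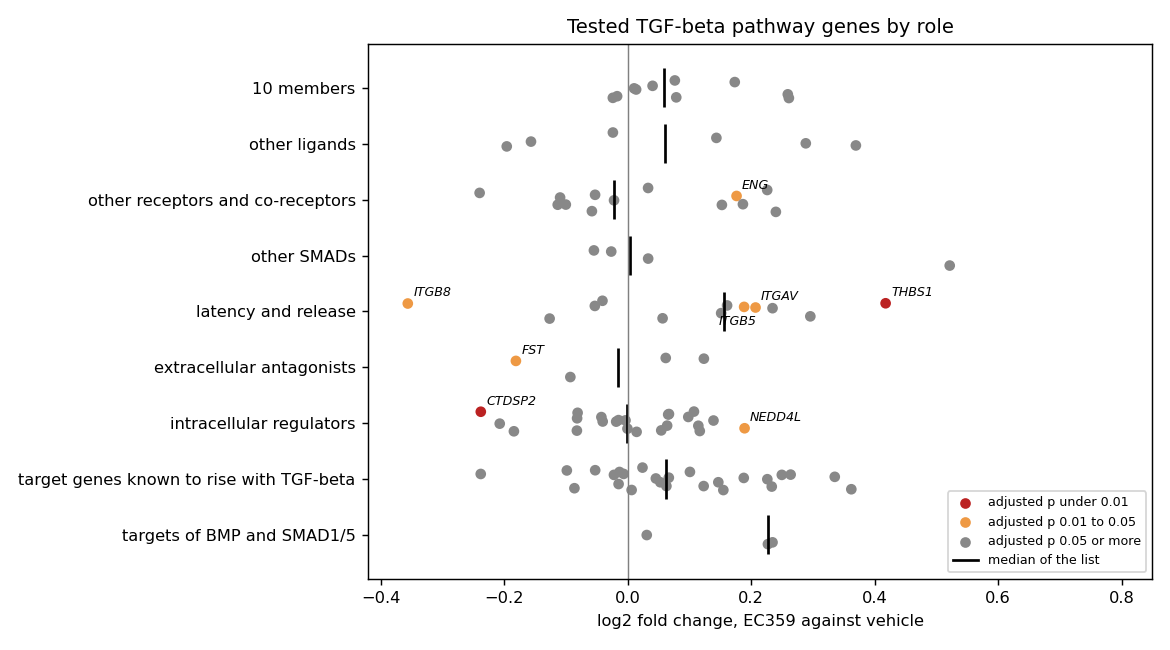
Log2 fold change of EC359 against vehicle (x axis) of each tested gene of the pathway, in rows by role (y axis, with vertical scatter inside a row for visibility only). Red points have an adjusted p under 0.01, orange points from 0.01 to 0.05 and grey points above, and black bars are list medians. THBS1 at 0.42 and CTDSP2 at -0.24 are the only red points.

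Among other receptors, 0 of 13 tested genes of 16 were called by edgeR's quasi-likelihood test, against 1.09% of all tested genes. The median log2 fold change of these receptors was -0.022. At an unadjusted p under 0.05 there was 1 gene, against 21.6% of all tested genes. That gene was ENG, the co-receptor endoglin, with 8035 and 8571 normalized counts with vehicle and 9281 and 9485 with EC359. The EC359 libraries were both above the vehicle libraries, and the log2 fold change was 0.18 (standard error 0.038, adjusted p = 0.0295). TGFBR3, the co-receptor betaglycan, and BMPR1A, a BMP type I receptor, had log2 fold changes of 0.153 and 0.19 with adjusted p values of 0.245 and 0.249, and BMPR1A ran from 0.110 (without EC359 replicate 2) to 0.26 (without EC359 replicate 1). Among 12 extracellular antagonists 4 could be tested and 0 were called by edgeR's quasi-likelihood test, against 1.09% of all tested genes. At an unadjusted p under 0.05, 1 was higher and 1 lower, where 21.6% of all tested genes passed. FST, which encodes the activin-binding protein follistatin, had 7025 and 7151 normalized counts with vehicle and 6228 and 6278 with EC359 (log2 fold change -0.18, standard error 0.033, adjusted p = 0.0153), a fall past 0.05 but not past 0.01. DESeq2 and edgeR's exact test did call FST, and the exact test called ENG. FST and INHBA, an inhibitor and its ligand subunit, had fold changes of opposite sign, the first under 0.05 and the second not. With GC and length trends removed the log2 fold change of INHBA was 0.034. FSTL3, another antagonist of the list and named after its values were seen, differed in sign from FST (log2 fold change 0.062, adjusted p = 0.695). TWSG1 and CHRDL1, both modulators of BMPs, had log2 fold changes of 0.123 and -0.093 (adjusted p = 0.0869 and 0.244).

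Of 29 other ligands of the superfamily only 6 had enough counts to be tested. Of these 6, edgeR's quasi-likelihood test called 0, against 1.09% of all tested genes. At an unadjusted p under 0.05, 1 was lower, where 21.6% of all tested genes passed. GDF11 had the lowest p, with 684 and 663 normalized counts with vehicle and 581 and 595 with EC359 (log2 fold change -0.196, adjusted p = 0.136). BMP2 and AMH followed, with log2 fold changes of -0.157 and 0.37 and adjusted p values of 0.321 and 0.341, and AMH ran from 0.156 (without vehicle replicate 1) to 0.62 (without vehicle replicate 2). The activin subunit gene INHBB had at most 2 counts and NODAL, LEFTY1 and LEFTY2 had 0 in all libraries, so INHBA was the activin subunit gene with appreciable counts.

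**Figure D5:**
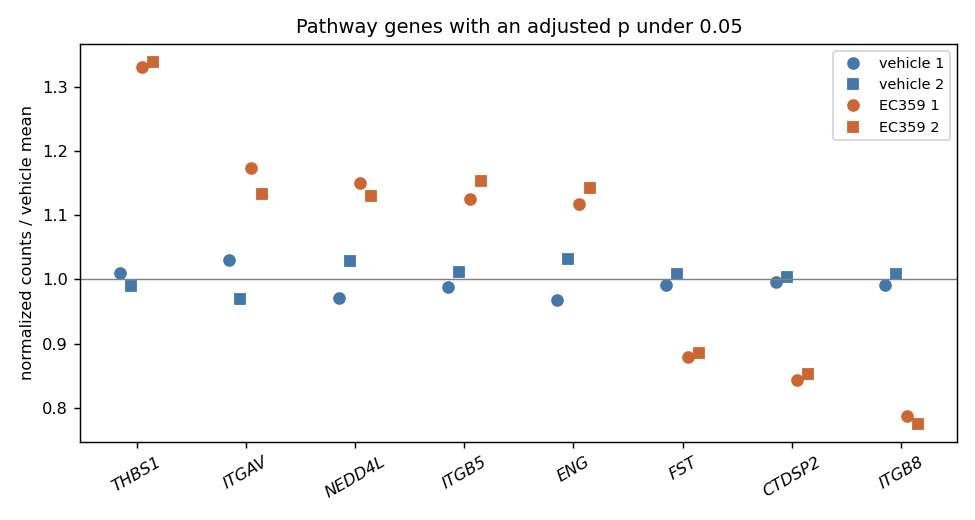
Normalized counts divided by the vehicle mean (y axis, not starting at 0) in each library for the 8 genes of the wider pathway with an adjusted p under 0.05 (x axis; blue, vehicle; orange, EC359; circles, replicate 1; squares, replicate 2). THBS1 lies at about 1.3 times the vehicle mean in both EC359 libraries, and ITGB8 lies lowest.

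Genes known to rise with TGF-beta were next examined as a readout of the pathway. Of 27 such genes 25 were tested and 0 were called by edgeR's quasi-likelihood test, where 1.09% of all tested genes were called. By sign 17 were higher and 8 lower, and at an unadjusted p under 0.05 there were 5 higher and 0 lower. At this mark 1356 of all 12706 tested genes were higher and 1394 lower. By sign all tested genes split into 6476 higher and 6230 lower. The median log2 fold change of the 25 target genes was 0.063. FN1 and TGFBI, both matrix genes, had log2 fold changes of -0.0065 and 0.0064. Both overlapped between treatments, and they are named here after their values were seen. The lowest p values belonged to CCN2 (listed as CTGF), a secreted matrix regulator, IL11, a cytokine, and MMP2, a gelatinase. CCN2 had 26698 and 26674 normalized counts with vehicle and 28592 and 28644 with EC359 (log2 fold change 0.101, adjusted p = 0.0704). IL11 had a log2 fold change of 0.19 (adjusted p = 0.0735) and MMP2 of 0.155 (adjusted p = 0.0756). Neither gene overlapped between treatments, and 26.1% of all tested genes were higher without overlap. IL11 and MMP2 passed 0.01 with GC and length trends removed (adjusted p = 0.00207 and 0.00749), a quasi-likelihood refit in which 1104 of 10945 genes did. COL1A2 and TAGLN had at most 1 and 11 counts in any library and were not tested.

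Of the ID genes, which are transcriptional inhibitors induced by BMP through SMAD1 and SMAD5, 3 of 4 were tested. Of these 0 were called, where 1.09% of all tested genes were called. At an unadjusted p under 0.05, 2 were higher, where 1356 of all 12706 tested genes were higher. ID3 had 1257 and 1441 normalized counts with vehicle and 1523 and 1636 with EC359 (log2 fold change 0.23, standard error 0.070, adjusted p = 0.0944). ID1 had 717 and 792 with vehicle and 793 and 984 with EC359 (log2 fold change 0.23, standard error 0.099, adjusted p = 0.206), and the EC359 libraries differed by more than the gap between treatments. With GC and length trends removed both ID3 (adjusted p = 0.000353) and ID1 (adjusted p = 0.00776) passed 0.01. That quasi-likelihood refit called 1104 of 10945 genes. With 1 library left out, ID3 ran from 0.133 (without vehicle replicate 1) to 0.32 (without vehicle replicate 2) and ID1 from 0.073 (without EC359 replicate 2) to 0.38 (without EC359 replicate 1). ID2 was low, with a log2 fold change of 0.031.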

How the data were processed

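Poly(A) RNA libraries of ES2 cells were sequenced as 50 base single-end reads. Per the labels and the paper's methods, the authors used CASAVA 1.8.2, aligned reads with TopHat2 2.0.8b to UCSC hg19, took genes from NCBI RefSeq and counted with HTSeq. What the authors deposited is unnormalized counts of reads for each gene symbol. The strand setting of the counting is not given in the sources used here. The antisense genes TGFB2-AS1, TGFB3-AS1 and INHBA-AS1 overlap 3 of the 10 genes, whose counts could hold antisense reads. Other opposite-strand genes that were not counted overlap the spans of TGFB1, TGFBR1, TGFBR2, SMAD2, SMAD3 and SMAD4. Exon overlap was not examined for genes that were not counted. Rows that name no gene were left out of totals and tests. Reads on no gene were 10.9% to 12% of uniquely aligned reads.

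Genes were filtered with filterByExpr (minimum count 10, minimum total 15), scaled by TMM and tested with edgeR 4.0.16 (glmQLFit and glmQLFTest) in R 4.3.3, with no covariate and with Benjamini-Hochberg adjustment over 12706 genes. A gene was called at an adjusted p under 0.01, the study's threshold. Standard errors were derived from the fold change and its F statistic, and intervals use the model's degrees of freedom. The study calls the replicates biologically independent samples, while the labels do not say how they were separated. Replicates differed by more than sampling noise (vehicle 3.78 and EC359 2.69 as chi-square over its degrees of freedom). The test was also run on simulated counts, and the outcome is not reported here.

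Gene positions and lengths come from GENCODE v44 lifted to GRCh37, the same assembly as hg19. No exon base of the 10 genes' reference transcripts is overlapped by another counted gene, and 0% of the 50 base windows of each is shared with transcripts of other genes, except 1.81% for SMAD2. The members and lists were chosen with earlier results of these data known. Named genes are the members and, for each list, every called gene or otherwise up to 3 with the lowest p, with LIF, LIFR and SOCS3, and exceptions are stated. Alternatives were RLE factors, total counts, DESeq2 1.42.0, limma 3.58.1 voom, edgeR's exact test, no filter, an adjusted p under 0.05, a replicate block, loess removal of GC and length trends (86.1% of genes), other lengths, and leaving out each library. The values of 1 target gene are not reported here.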

Additional observations from a re-analysis of the deposited data

How the results depend on the processing

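Of all genes, 139 were called as reported. The count was 549 at an adjusted p under 0.05, 230 with DESeq2, 568 with edgeR's exact test, 61 with no filter (16620 genes tested), 1104 with GC and length trends removed, and from 0 to 539 when 1 library was left out (0 without EC359 replicate 1, 2 without EC359 replicate 2). Of the 10 TGF-beta genes, 0 were called as reported, 1 with the exact test (TGFB2), 1 with GC and length trends removed (TGFB2) and 0 to 2 with 1 library left out (TGFB1 and TGFB2 without vehicle replicate 2). Of the other pathway genes, 2 were called as reported, 8 at an adjusted p under 0.05, 1 with total counts only, 8 with the exact test, 1 with no filter, 15 with trends removed and 0 to 11 with 1 library left out. The causes were not tested. Libraries share replicate numbers but nothing states that a number marks a batch. Deviations of same-numbered libraries correlated at 0.103 over genes, and a replicate block called 1539 genes, 2 of the 10 TGF-beta genes (TGFB1, adjusted p = 0.00416, and TGFB2, adjusted p = 0.00146) and 19 other pathway genes.

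TGFB1, TGFB2, SMAD7 and INHBA were higher and TGFBR2 lower in all 12 refits, TGFBR2 by as little as -0.0001 with total counts only. Signs turned with GC and length trends removed for TGFBR1 (-0.0041), SMAD2 (-0.025) and SMAD5 (-0.019), and with total counts only for SMAD4 (0.0068). With 1 library left out, TGFB3 ran from -0.195 to 0.31, TGFBR1 from -0.0044 to 0.082, SMAD2 from -0.0145 to 0.038, SMAD3 from -0.0101 to 0.031, SMAD4 from -0.048 to 0.0103, SMAD5 from -0.0133 to 0.076 and ID2 from -0.24 to 0.27. Per kb of the longest transcript, vehicle levels were 228 for TGFB1, 5.02 for TGFB3, 231 for TGFBR1, 2230 for TGFBR2, 66.4 for SMAD2, 1510 for SMAD3, 263 for SMAD4, 47.3 for SMAD7 and 627 for INHBA. Depth limits TGFB3, SMAD6 and SMAD7, which had few counts.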

Other observations

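NOG, which encodes the BMP antagonist noggin, was below the filter on low counts and is named after its values were seen. It had 1 count in each vehicle library and 11 and 9 counts in EC359 replicates 1 and 2. The ratio of summed counts per library total was 8.3 (95% exact interval 2.02 to 73.3, which covers counting error only). Without a filter the adjusted p of NOG was 0.116 from edgeR's quasi-likelihood test.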
